A study of Caenorhabditis elegans with 23 samples.

Results

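The *nhr* genes of *Caenorhabditis elegans* encode nuclear hormone receptors, and their mRNA levels were compared across strains with and without a functional *sid-1* gene. Members were taken as every gene named *nhr-* followed by a number in the WBcel235 annotation, which gave 269 members among the 21982 genes with entries in the data. They are spread over 495 transcripts, and 165 of them have a single transcript. By chromosome, 167 members lie on V, 33 on IV, 23 on I, 23 on X, 15 on II and 8 on III.

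Nuclear receptors are transcription factors with a zinc-finger DNA-binding domain and, in most cases, a domain that can bind a lipid-like ligand. The worm family is far larger than that of insects or mammals, because a receptor related to mammalian HNF4 was duplicated many times, and a small group of members has clear counterparts in insects and mammals. In the worm intestine, epidermis and germline, the members that have been studied adjust fat metabolism, the breakdown of propionate, moulting and responses to food and toxins, often with the Mediator subunit MDT-15 as coactivator.

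SID-1 imports double-stranded RNA into the cytosol, and the study asked how its loss changes gene expression. PolyA+ RNA of mixed-stage whole animals was sequenced in 23 libraries in 3 sets, each with its own wild type (the strain N2). The deletion set holds 3 replicates of *sid-1(jam113[deletion])*, which lacks the whole coding sequence, and 3 of wild type. The nonsense and revertant set holds 3 replicates each of *sid-1(jam80[nonsense])*, of *sid-1(jam86[revertant])*, in which the nonsense mutation was changed back to wild-type sequence, and of wild type. The older alleles set holds 2 replicates each of *sid-1(qt9[nonsense])*, of *sid-1(tm2700[deletion])*, of *sid-1(tm2700[deletion]); tmIs1005[sid-1(+)]*, where a transgene supplies *sid-1* again and which is called the rescued strain, and of wild type. The edited alleles *jam113*, *jam80* and *jam86*, the older alleles and the rescued strain are each represented by a single strain. A difference between strains therefore cannot be told apart from other differences in their ancestry. For the older strains, the paper proposes that other differences, such as genetic background, hide or distort those due to *sid-1*. The first 2 sets were grown on plates and are called the plate sets, with RNA extracted by RNAzol and stranded libraries read from both ends. The older set is labelled as liquid culture, although the methods describe plates, and its RNA was extracted with TRIzol and read from a single end.

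Library totals ranged from 35320382 to 79287591 estimated reads in plate libraries and from 22147631 to 26396892 in older ones. The family took between 0.123% and 0.162% of the reads of a plate library and between 0.256% and 0.312% of those of an older library. Mean *sid-1* level was 1.16 CPM (estimated reads relative to the scaled library total) in *sid-1(jam113[deletion])*, against 46.4 CPM in its wild type. The means were 18.4 CPM in *sid-1(jam80[nonsense])* and 33.0 CPM in *sid-1(jam86[revertant])*, against 36.8 CPM in their wild type. In the older set they were 16.8 CPM in *sid-1(qt9[nonsense])*, 22.5 CPM in *sid-1(tm2700[deletion])* and 48.003 CPM in the rescued strain, against 31.8 CPM in wild type. In each set the mutants thus had less *sid-1* RNA than their wild type. Markers of intestine, body muscle, neurons, epidermis, germline and sperm had reads in every group, as whole animals should.

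Most members were transcribed at low levels, and the family's summed level was spread over many of them. On the scale of TPM, which divides by transcript length and so allows levels of different genes to be compared, the median member had 1.25 TPM over the 8 wild-type libraries, against 2.62 TPM for the median of all genes. There were 19 members at 10 TPM or more, 128 from 1 to 10, 56 from 0.1 to 1 and 66 under 0.1. No read was assigned to 2 members, and 42 stayed under 10 reads in every library. The 10 highest members held 28.6% of the family's summed level, and 27 members made up 50% of it or more.

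**Figure D1:**
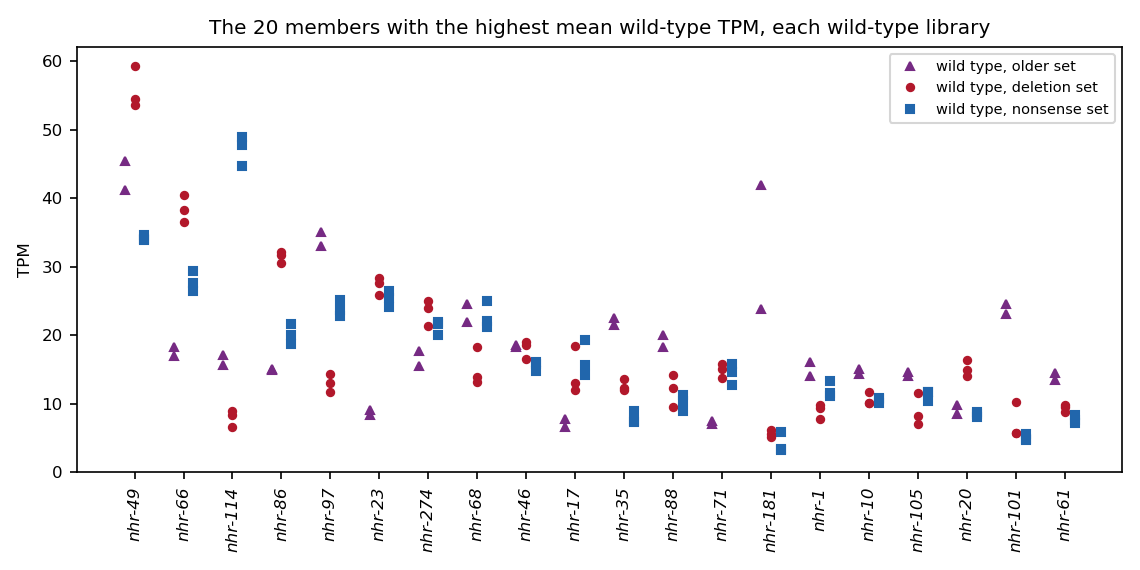
TPM of the 20 members with the highest mean over the wild types, on the vertical axis; each point is 1 wild-type library of the older set (triangles), the deletion set (circles) or the nonsense and revertant set (squares). *nhr-49* has the highest mean, 44.6 TPM, and *nhr-114* lies between 6.56 and 48.9 TPM depending on the set.

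The highest mean level was that of *nhr-49*, an HNF4-type receptor that controls fatty acid desaturation and oxidation, at 44.6 TPM. It was followed by *nhr-66*, a partner of NHR-49 in lipid genes, at 29.2 TPM. *nhr-114*, an HNF4-type receptor that protects the germline on some diets, averaged 24.8 TPM. *nhr-86*, an intestinal receptor that senses small molecules and activates immune genes, averaged 23.1 TPM, and *nhr-97* averaged 22.4 TPM. *nhr-23*, the counterpart of the insect moulting regulator HR3 and of mammalian ROR receptors, averaged 21.9 TPM. The next 4 were *nhr-274* at 20.9, *nhr-68*, an activator of the propionate shunt, at 20.02, *nhr-46* at 17.2 and *nhr-17* at 13.4 TPM. Neighbours in this order often had overlapping libraries, as the plot of wild-type levels shows. *nhr-114*, from 6.56 to 48.9 TPM, and *nhr-181*, from 3.31 to 41.999 TPM, had wide ranges over the 8 libraries. The 11 members with counterparts outside nematodes were not uniformly high. Their median was 2.07 TPM, from *nhr-23* down to *nhr-236* at 0.32 TPM and *nhr-239* at 0.23 TPM.

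The family was read at a higher level in the older set than in the plate sets. Of 166 members at 1 TPM or more in either, 118 had both wild-type libraries of the older set above all 6 plate libraries and 10 had both below, against 30.6% and 41.9% of all genes at that level. The median ratio of older over plate levels was 2.05 for these members and 0.785 for all such genes. *nhr-181* ranked 14 among members by mean wild-type TPM but 74 by mean CPM, which does not divide by transcript length. It averaged 32.9 TPM in the older wild type, against 5.64 TPM in the deletion set and 4.21 TPM in the nonsense and revertant set. *nhr-23* went the other way, with 8.75 TPM in the older wild type against 27.3 and 25.4 TPM in the wild types of the deletion set and of the nonsense and revertant set. *nhr-80*, which activates desaturase genes together with NHR-49, had 10.7 TPM in the older wild type against 3.64 and 3.58 TPM in the same plate wild types. No test was made across these sets, since extraction, kit, read type and culture differ between them and cannot be told apart from biology.

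The first question was whether loss of *sid-1* changed any receptor. No member changed in *sid-1(jam113[deletion])* compared with wild type in the full comparison. Of 204 members tested, 0 had an adjusted *p* under 0.05 in the quasi-likelihood test of edgeR, adjusted by the Benjamini-Hochberg method, against 0.197% of all genes tested. By limma with voom the count was also 0, and by DESeq2 it was 5, of which 2 were higher. The DESeq2 count was not set against all genes. At an unadjusted *p* under 0.05 there were 29 members, 8 higher and 21 lower (14.2% of members and 12.7% of all genes). Below 0 on the log2 scale lay 143 of the 204 members, against 50.0% of all genes. The median difference was -0.14 for members and 0.00 for all genes. A lower level in such bulk RNA can come from fewer cells of a type or from less RNA per cell, and the data do not separate these.

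A single library decided this count. Without *sid-1(jam113[deletion])* replicate 3, 20 of 200 members passed the same edgeR threshold, 5 higher and 15 lower, against 8.23% of all genes (3.98% higher and 4.25% lower). These members were found by leaving replicate 3 out, so its place among them is in part set by that choice and is given as a description. *nhr-99* had 2.17, 2.80 and 5.78 CPM in *sid-1(jam113[deletion])* replicates 1, 2 and 3, against 7.47, 9.85 and 7.45 CPM in wild type. All mutant values were below all wild-type values, yet replicate 3 was closer to wild type than to the other mutant libraries. Its log2 difference was -1.20 ± 0.34 (SE) with all libraries (adjusted *p* = 0.209 by edgeR) and -1.76 without replicate 3 (adjusted *p* = 0.0018 by edgeR).

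Further members among the 20 chosen by leaving replicate 3 out are given in the same way, as a description. *nhr-114* had 19.1, 22.6 and 13.4 CPM in *sid-1(jam113[deletion])*, against 9.66, 10.8 and 11.4 CPM in wild type. Its mutant libraries were all higher, with replicate 3 nearest to wild type (log2 difference 0.77 ± 0.17, SE, adjusted *p* = 0.139 by edgeR with all libraries, and 0.94, adjusted *p* = 0.00269 by edgeR, without replicate 3). *nhr-68* had 20.1, 21.4 and 14.2 CPM in the mutant, against 13.2, 15.3 and 12.8 CPM in wild type, so that replicate 3 fell inside the wild-type range. *nhr-64*, a receptor with a reported part in fat storage, had 4.4, 4.71 and 8.09 CPM in the mutant, against 8.60, 11.1 and 8.24 CPM in wild type. For *nhr-35* the mutant values were 13.1, 15.3 and 23.7 CPM, against 23.2, 22.4 and 21.4 CPM in wild type, which puts replicate 3 above every wild-type library. In the list of 27 members with known roles, 0 of 26 tested changed with all libraries, and the list's median was -0.07.

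**Figure D2:**
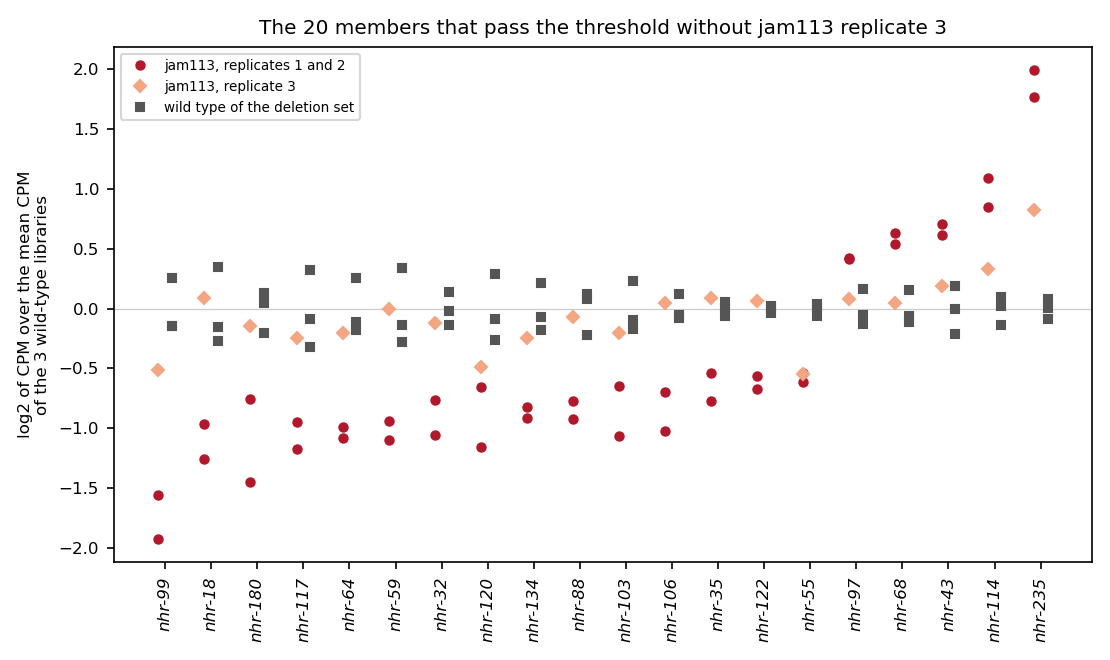
Each library's level of the 20 members that pass the threshold without *jam113* replicate 3, as log2 of CPM over the mean of the 3 wild-type libraries of the deletion set (vertical axis; 0 is that mean). Circles are replicates 1 and 2 of *sid-1(jam113[deletion])*, diamonds its replicate 3, whose omission chose these members, and squares wild type; 16 of the 20 diamonds lie between the mean of the circles and that of the squares.

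Several marker lists differed between these libraries. The summed level of 5 intestinal genes (*ges-1*, *elt-2*, *asp-1*, *cpr-1* and *ifb-2*) was 1795, 1838 and 3211 CPM in *sid-1(jam113[deletion])* replicates 1, 2 and 3, against a range of 2886 to 3339 CPM in wild type. All 5 genes were read in each library, all 5 had a lower mean in the mutant, and 0 passed the threshold. The 6 yolk protein genes of the adult intestine summed to 40814, 40661 and 44483 CPM in the mutant. Their range in wild type was 41149 to 45953 CPM, and 3 of the 6 had a higher mean in the mutant. The summed level of 4 dauer genes was 280, 346 and 492 CPM in the mutant, against 492 to 525 CPM in wild type. Of these 4, only 1 was tested, and 1 had a higher mean in the mutant. The sum of 5 epidermal genes was 1125, 924 and 810 CPM in the mutant, against 567 to 802 CPM in wild type, but only 3 of the 5 had a higher mean in the mutant. No gene of any marker list passed the threshold in this comparison, and none was at 0. The part of these marker differences in the levels of the *nhr* members was not tested.

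Neither the nonsense allele nor the difference between the alleles gave a call by edgeR. In *sid-1(jam80[nonsense])* compared with its wild type, 0 of 194 members changed by edgeR, against 0.0665% of all genes. By limma with voom and by DESeq2 the count was 0, and 9 members had an unadjusted *p* under 0.05 (4.64% of members and 6.28% of all genes). The member median was 0.02. The lowest adjusted *p* was 0.549 by edgeR, for *nhr-19*. Its level was 14.2, 14.2 and 17.3 CPM in the mutant, against 11.7, 12.1 and 12.2 CPM in wild type, without overlap. In a joint fit, the effect of *jam113* was compared with that of *jam80* as an interaction, and 0 of 208 members passed by edgeR, against 0.25% of all genes. DESeq2 gave 5, which was not set against all genes, and limma with voom gave 0. At an unadjusted *p* under 0.05 there were 28 members (13.5% of members and 10.8% of all genes). Without *sid-1(jam113[deletion])* replicate 3, 22 members passed by edgeR, 6 with a more positive and 16 with a more negative effect in *jam113*, against 7.8% of all genes (3.89% and 3.92%). The lowest adjusted *p* with all libraries was 0.0932, shared by *nhr-95* and *nhr-19*.

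*sid-1(jam86[revertant])* animals, whose *sid-1* sequence is wild type again, differed from wild type at 4 of 196 members by edgeR, 1 higher and 3 lower, against 3.28% of all genes (2.38% higher and 0.896% lower). *nhr-17* (WBGene00003616, X:12663837-12667854) differed most. It had 18.3, 18.7 and 14.8 CPM in *sid-1(jam86[revertant])*, against 38.2, 31.5 and 28.2 CPM in wild type. All 3 revertant libraries were below all wild-type libraries (log2 difference -0.91 ± 0.11, SE, adjusted *p* = 0.000597 by edgeR). In the parent strain *sid-1(jam80[nonsense])* it had 25.3, 34.0 and 25.2 CPM, which overlapped wild type. Compared with that parent the revertant was lower by a log2 difference of -0.69 ± 0.12 (SE, adjusted *p* = 0.0137 by edgeR), and *nhr-17* was the only 1 of 195 members that changed, against 1.25% of all genes. Without *sid-1(jam86[revertant])* replicate 3 this last call was lost (adjusted *p* = 0.0964 by edgeR), and the count was 0. It was 3 without *sid-1(jam86[revertant])* replicate 1 and 2 without *sid-1(jam80[nonsense])* replicate 1. Neither count was set against all genes. In both comparisons *sid-1(jam86[revertant])* libraries enter, so they are not independent of each other.

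The remaining members in the revertant had smaller or less firm differences. *nhr-47* (WBGene00003637, V:5505253-5509956) had 8.98, 9.77 and 9.08 CPM in *sid-1(jam86[revertant])*, against 12.5, 12.5 and 12.1 CPM in wild type (log2 difference -0.41 ± 0.09, SE, adjusted *p* = 0.0191 by edgeR). Its libraries in *sid-1(jam80[nonsense])*, at 9.67, 10.4 and 10.4 CPM, were also below all wild-type libraries but missed it (adjusted *p* = 0.623 by edgeR). *nhr-237* (WBGene00021610, V:1625189-1626820) was lower, with 1.01, 0.880 and 0.807 CPM in the revertant, against 1.89, 1.47 and 1.44 CPM in wild type (log2 difference -0.80, adjusted *p* = 0.0385 by edgeR). *nhr-58* (WBGene00003648, V:532259-534070) was higher, with 2.71, 2.78 and 2.62 CPM in the revertant, against 1.92, 1.78 and 1.5 CPM in wild type (log2 difference 0.65, adjusted *p* = 0.029 by edgeR). None of the 4 members overlapped between the groups. The count was 1 without wild-type replicate 2, without wild-type replicate 3 or without *sid-1(jam86[revertant])* replicate 3, and 2 without *sid-1(jam86[revertant])* replicate 2. In the same comparison 5 of 7 sperm genes were higher, their sums ranging from 460 to 471 CPM in *sid-1(jam86[revertant])* against 341 to 405 CPM in wild type, with none at 0. Their part in the results was not tested.

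**Figure D3:**
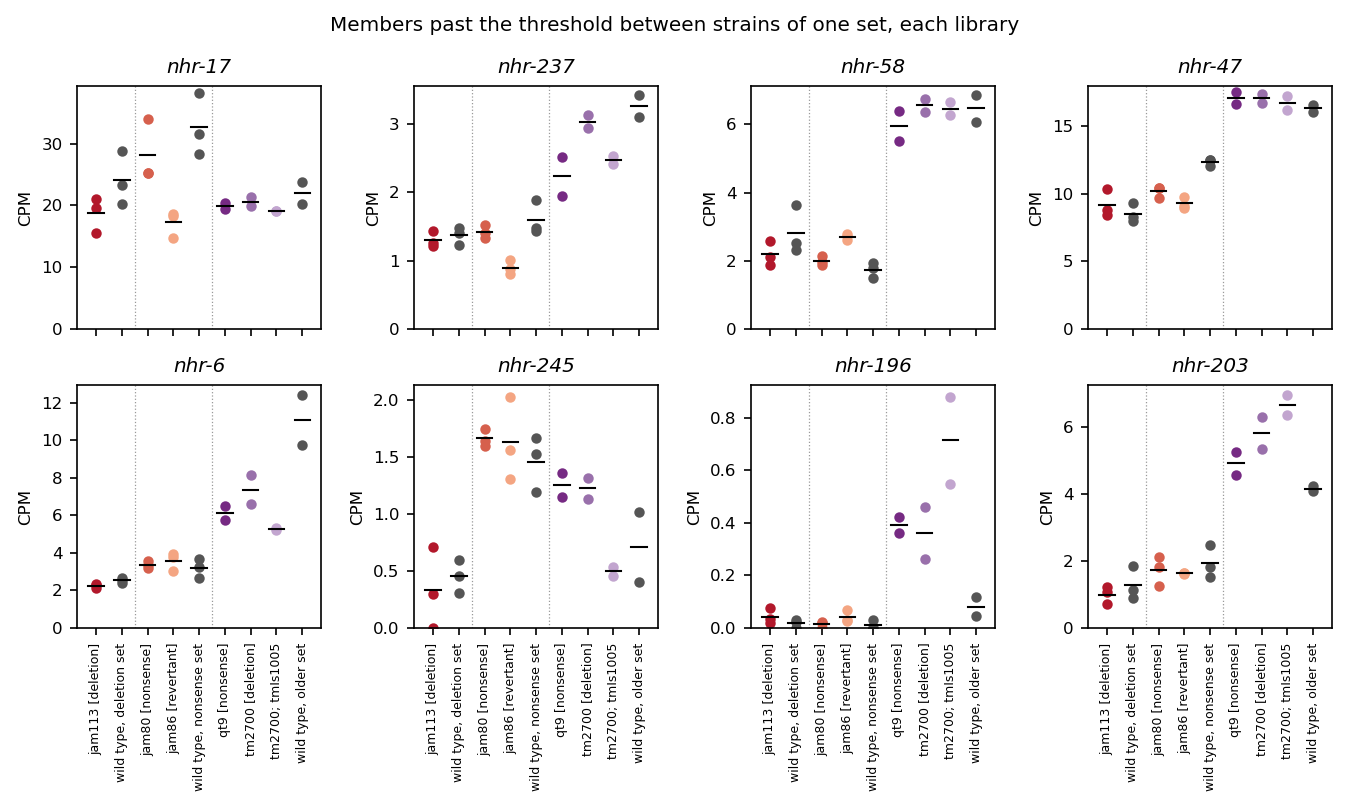
CPM of the 8 members that passed the threshold between strains of a set, on vertical axes that start at 0; each point is 1 library and each bar a group mean, with dotted lines between the deletion set, the nonsense and revertant set and the older set. *nhr-17* is lowest in its set in the 3 *jam86* libraries, and *nhr-6* is highest in the 2 wild-type libraries of the older set.

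In the older set, *nhr-6* was the member that moved most firmly. It is the counterpart of the mammalian NR4A receptors and is needed for the spermatheca, the sperm store of the hermaphrodite (WBGene00003605, III:3573581-3578771). Its level was 5.75 and 6.51 CPM in *sid-1(qt9[nonsense])*, 6.60 and 8.14 CPM in *sid-1(tm2700[deletion])* and 5.30 and 5.21 CPM in the rescued strain, against 12.4 and 9.75 CPM in wild type. All 6 libraries of the 3 other strains were below both wild-type libraries, including those of the strain with the *sid-1* transgene. The log2 difference from wild type was -0.86 ± 0.19 (SE) in *sid-1(qt9[nonsense])* (adjusted *p* = 0.0155 by edgeR) and -1.08 ± 0.18 (SE) in the rescued strain (adjusted *p* = 0.000112 by edgeR). In *sid-1(tm2700[deletion])* it was -0.59 ± 0.16 (SE) and did not pass (adjusted *p* = 0.149 by edgeR). The 3 comparisons share the same 2 wild-type libraries. Without wild-type replicate 1 the *sid-1(qt9[nonsense])* call was lost (log2 difference -0.66, adjusted *p* = 0.262 by edgeR).

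With 30 of 269 members too low to test, *nhr-6* was the only member that changed in *sid-1(qt9[nonsense])*, against 1.84% of all genes. The member median was -0.11, against -0.02 for all genes, and 170 of the tested members lay below 0. The count was 10 (1 higher and 9 lower) without *sid-1(qt9[nonsense])* replicate 2, against 8.92% of all genes in that fit (3.92% higher and 5.0% lower), and 0 without wild-type replicate 1. Markers moved with this strain. All 4 genes of the dauer larva, a resting stage, were higher. The summed level of these 4 genes ranged from 987 to 1071 CPM in *sid-1(qt9[nonsense])*, against 747 to 761 CPM in wild type. The dauer collagens *col-2* (11.01 and 13.6 CPM) and *col-40* (12.1 and 15.3 CPM) stood out in *sid-1(qt9[nonsense])*, against at most 0.401 CPM in the wild-type libraries of the set, and none of the 4 was at 0 there. Of 6 yolk protein genes of the adult intestine 4 were higher (26257 to 32055 CPM against 24389 to 24724 CPM in sum), of 8 moulting-larva genes 2 were higher (316 to 357 CPM against 223 to 259 CPM), of 5 body muscle genes 2 were higher (3943 to 4719 CPM against 3965 to 4115 CPM), and of 6 neuronal genes 1 was lower (686 to 854 CPM against 910 to 968 CPM), with none at 0. The part of these in the *nhr-6* level was not tested. In the plate sets, which were scaled separately from the older set, *nhr-6* had from 2.12 to 3.94 CPM in all 15 libraries.

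No member changed between *sid-1(tm2700[deletion])* and wild type. The count was 0 by edgeR, by limma with voom and by DESeq2, with 30 members not tested, against 1.11% of all genes, with 25 members at an unadjusted *p* under 0.05 (10.5% of members and 10.6% of all genes). It was 2 without either wild-type library (replicate 1 or replicate 2) and 1 without *sid-1(tm2700[deletion])* replicate 2. Between the same mutant and the rescued strain, 33 members were not tested and 1 of the others changed, against 2.07% of all genes. This was *nhr-245* (WBGene00014189, I:11477744-11480071), with 1.32 and 1.13 CPM in *sid-1(tm2700[deletion])*, against 0.457 and 0.536 CPM in the rescued strain. The values did not overlap (log2 difference 1.28 ± 0.36, SE), but the adjusted *p* of 0.0496 by edgeR was just under the threshold. Without any 1 of the 4 libraries the call was lost, the adjusted *p* by edgeR then lying between 0.0756 and 0.295. The count over all members was 0 without either *sid-1(tm2700[deletion])* library and 8 without rescued replicate 1, against 8.47% of all genes in that last fit. Of the 9 NHR-49 targets, 4 were higher in the mutant than in the rescued strain, *cpt-5* by 0.88, *ech-1.1* by 0.75, *fat-7* by 0.68 and *fat-5* by 0.51 on the log2 scale, while *nhr-49* itself was not among the members that changed. Compared with wild type, 1 target was higher (*fat-7*) and 1 lower (*fmo-2*) in *sid-1(tm2700[deletion])*, and 3 were lower in the rescued strain (*cpt-5*, *fat-5* and *icl-1*). Of these calls only that of *cpt-5* held in all 12 alternative fits. In those fits the log2 difference ranged from -0.40 to -0.32 for *fmo-2* and from -0.55 to -0.28 for *icl-1*. *cpt-5* had 23.9 and 25.7 CPM in *sid-1(tm2700[deletion])* and 12.6 and 14.2 CPM in the rescued strain, against 21.2 and 21.3 CPM in wild type, so that the rescued strain stood apart. Between the mutant and the rescued strain 3 of 5 body muscle genes were higher (4202 to 4874 CPM against 3443 to 3620 CPM in sum), 2 of 5 epidermal genes (430 to 454 CPM against 429 to 473 CPM) and 2 of 8 moulting-larva genes (260 to 262 CPM against 208 to 224 CPM). Of 4 dauer genes, 1 was higher and 2 lower (853 to 864 CPM against 501 to 607 CPM in sum). The part of these markers was not tested.

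The rescued strain differed from wild type at 3 of 238 members, 2 higher and 1 lower, against 3.54% of all genes (1.26% higher and 2.28% lower). Besides *nhr-6*, 2 members of chromosome V were higher. *nhr-196* (WBGene00010600, V:15685716-15687715) rested on 12 and 23 reads in the rescued strain, against 3 and 1 reads in wild type. These are 0.549 and 0.881 CPM in the rescued strain and 0.118 and 0.0445 CPM in wild type, with a log2 difference of 3.04 ± 0.65 (SE, adjusted *p* = 0.00358 by edgeR) that such small counts fix only loosely. It was 3.88 without wild-type replicate 1 and 2.57 without wild-type replicate 2, and stayed under the threshold in both. In both other strains of the set it was also above wild type, at 0.362 and 0.421 CPM in *sid-1(qt9[nonsense])* and 0.264 and 0.462 CPM in *sid-1(tm2700[deletion])*, without passing the threshold. *nhr-203* (WBGene00019743, V:459795-461899) had 6.36 and 6.93 CPM in the rescued strain, against 4.08 and 4.23 CPM in wild type (log2 difference 0.68 ± 0.19, SE, adjusted *p* = 0.0373 by edgeR). This call was lost without wild-type replicate 1, wild-type replicate 2 or rescued replicate 2 (adjusted *p* from 0.1 to 0.205 by edgeR). In this comparison 3 of 5 epidermal genes were lower, although the sum of the list was not (429 to 473 CPM in the rescued strain against 396 to 419 CPM in wild type), as were 2 of 8 moulting-larva genes (208 to 224 CPM against 223 to 259 CPM), 1 of 5 body muscle genes and 1 of 6 neuronal genes. Of 6 yolk protein genes 2 were higher, and of 4 dauer genes 3 were higher and 1 lower (501 to 607 CPM against 747 to 761 CPM). A single embryonic marker had no read in the rescued strain, and the part of these markers was not tested.

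**Figure D4:**
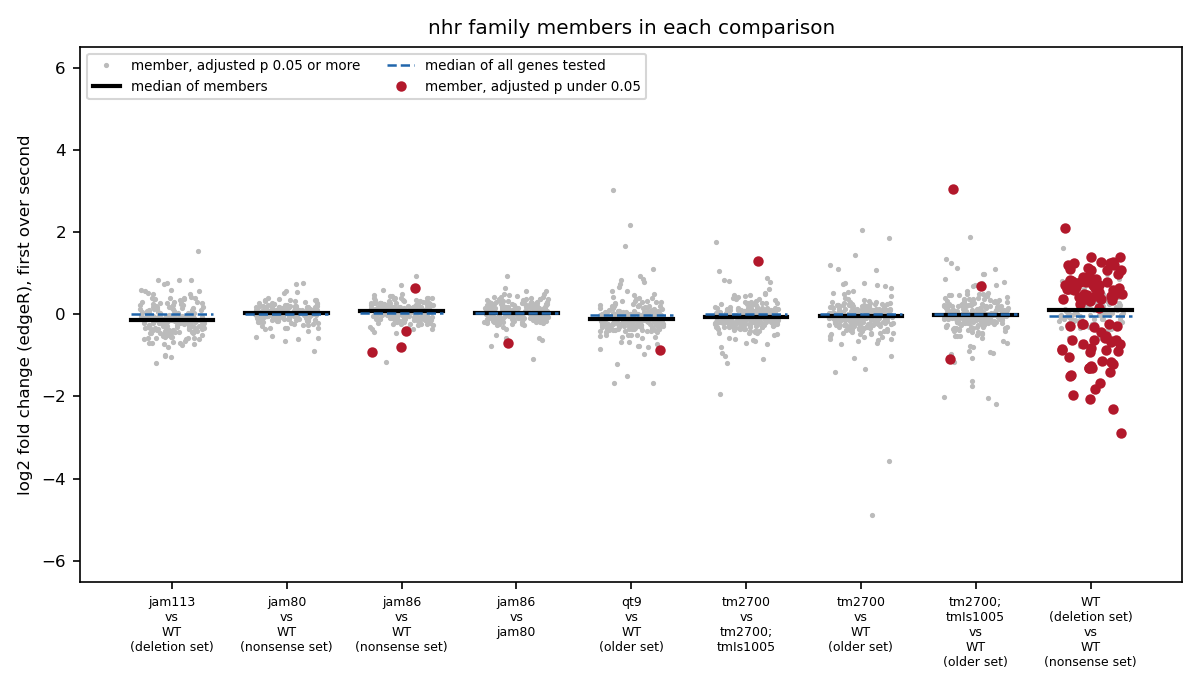
Log2 fold change (edgeR) of every tested member in each of the 9 pairwise comparisons, first strain over second; red points pass an adjusted p of 0.05, black bars are member medians and dashed blue bars medians of all genes tested. Between strains of a set 0 to 4 members pass, and between the wild types of the plate sets 93 do.

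The wild types of the plate sets, nominally the same strain, differed far more than any mutant from its control. Of 199 members, 93 (46.7%) changed between the wild type of the deletion set and that of the nonsense and revertant set by edgeR, against 64.4% of all genes. There were 54 higher and 39 lower members in the deletion set, against 31.0% higher and 33.4% lower over all genes. In 88 of the 93 the 3 libraries of either side did not overlap, and this count was not set against all called genes. Whatever differed between the sets and any difference between the wild-type animals used cannot be told apart here. The median was 0.11 for members and -0.03 for all genes.

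*nhr-114* (WBGene00003704, V:4187202-4190008) differed most. It had 9.66, 10.8 and 11.4 CPM in wild type of the deletion set, against 78.5, 82.2 and 74.2 CPM in that of the nonsense and revertant set, a log2 difference of -2.88 ± 0.08 (SE, adjusted *p* = 1.51e-10 by edgeR), or 7.36-fold. The mutants followed their own set, at 13.4 to 22.6 CPM in *sid-1(jam113[deletion])*, against 64.8 to 87.3 CPM in *sid-1(jam80[nonsense])* and 79.6 to 86.7 CPM in *sid-1(jam86[revertant])*. *nhr-99* (WBGene00003689, V:474778-477155) was the most raised member, with 7.47, 9.85 and 7.45 CPM in the deletion set's wild type against 1.89, 1.72 and 2.21 CPM in the other (log2 difference 2.09 ± 0.16, SE, adjusted *p* = 1.27e-07 by edgeR). In *sid-1(jam113[deletion])* it had 2.17 and 2.80 CPM in replicates 1 and 2, near the level of the nonsense and revertant set, and 5.78 CPM in replicate 3, nearer to the wild type of its own set.

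The propionate shunt was lower together with its regulators. This pathway degrades propionate when vitamin B12 is scarce, and NHR-10 acts upstream of NHR-68 to switch it on. *nhr-68* had 13.2, 15.3 and 12.8 CPM in wild type of the deletion set, against 35.9, 32.2 and 34.0 CPM in that of the nonsense and revertant set (log2 difference -1.30 ± 0.09, SE, adjusted *p* = 6.35e-08 by edgeR). *nhr-10* differed much less, with 16.5, 16.6 and 15.6 CPM against 19.4, 18.6 and 19.6 CPM (log2 difference -0.24, adjusted *p* = 0.0179 by edgeR). All 5 enzymes of the shunt were lower, against 33.4% of all genes. The log2 differences were -1.45 for *acdh-1*, -1.68 for *hphd-1*, -1.21 for *ech-6*, -1.09 for *hach-1* and -0.89 for *alh-8*. *acdh-1*, the acyl-CoA dehydrogenase that opens the pathway, had 339, 334 and 325 CPM in wild type of the deletion set, against 953, 894 and 887 CPM in the other. Within the plate sets none of the 5 changed between strains by edgeR.

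For fat metabolism, *nhr-49* was higher and most of its listed targets were lower. *nhr-49* was higher, at 115, 110 and 110 CPM in the deletion set's wild type against 80.8, 80.6 and 79.9 CPM in the other (log2 difference 0.48 ± 0.06, SE, adjusted *p* = 1.31e-05 by edgeR). Of 9 genes listed as NHR-49 targets, 6 were lower, 1 was higher and 2 did not pass. Over all genes tested, 33.4% were lower and 31.0% higher. The stearoyl-CoA and palmitoyl-CoA desaturases *fat-5*, *fat-7* and *fat-6* were lower by -2.57, -2.07 and -1.15 on the log2 scale, and the acyl-CoA synthetase *acs-2* by -2.53. The flavin monooxygenase *fmo-2* was higher by 1.19, at low levels of 1.74, 1.91 and 1.63 CPM against 0.786, 0.937 and 0.575 CPM. In *sid-1(jam113[deletion])* it had 0.539, 0.692 and 1.77 CPM. The partner receptors of NHR-49 differed little, with log2 differences of 0.16 for *nhr-66* (adjusted *p* = 0.0471 by edgeR), -0.24 for *nhr-13* (adjusted *p* = 0.0255 by edgeR) and -0.25 for *nhr-80* (adjusted *p* = 0.101 by edgeR). *fat-5* was also the only one of these targets that changed with *jam113*. It had 14.8, 12.5 and 9.44 CPM in *sid-1(jam113[deletion])*, against 4.67, 3.30 and 4.45 CPM in wild type, without overlap (log2 difference 1.54 ± 0.18, SE, adjusted *p* = 0.0306 by edgeR). The *fat-5* call was lost without *sid-1(jam113[deletion])* replicate 2 and without wild-type replicate 1, 2 or 3 (adjusted *p* from 0.0585 to 0.223 by edgeR), the log2 difference staying between 1.41 and 1.62. With the replicate number as a block the adjusted *p* was 0.0895.

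Receptors with counterparts outside nematodes were lower or did not pass. Of the 11 conserved members, 6 were lower in the deletion set's wild type and 0 higher, against 33.4% and 31.0% of all genes. *nhr-85*, related to insect E75 and mammalian Rev-erb, had 2.10, 2.68 and 2.36 CPM against 5.59, 5.07 and 6.35 CPM (log2 difference -1.25 ± 0.14, SE). *nhr-41*, related to the testicular orphan receptors of mammals, had 3.46, 4.08 and 4.89 CPM against 7.71, 9.18 and 10.2 CPM (log2 difference -1.13 ± 0.15, SE). *nhr-67*, the counterpart of tailless, *nhr-25*, that of FTZ-F1 and a regulator of moulting, *nhr-91*, that of GCNF, and *nhr-48* were lower by -0.82, -0.62, -0.62 and -0.29 on the log2 scale. *nhr-23*, the main moulting receptor, had 63.0, 58.5 and 64.8 CPM against 60.3, 66.4 and 63.7 CPM, and the groups overlapped (log2 difference -0.03 ± 0.07, SE, adjusted *p* = 0.716 by edgeR). Outside the *nhr* names, *daf-12*, the receptor for dafachronic acid, was lower by -0.59. Of 6 genes listed for the making of this hormone, 5 were tested and 3 were lower. These were *daf-9* by -1.90, *dhs-16* by -1.21 and *daf-36* by -0.49. *daf-9* and *dhs-16* were low, at most 0.757 and 0.677 CPM in the deletion set's wild type. *emb-8* did not pass, at 180, 181 and 188 CPM against 165, 174 and 164 CPM. Nor did *strm-1*, at 2.41, 3.32 and 3.03 CPM against 2.91, 1.76 and 2.50 CPM. *hsd-1* was not tested.

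Among the 26 tested members with known roles, 5 were higher and 13 lower, against 31.0% and 33.4% of all genes. *nhr-62*, which is needed for the long life of diet-restricted worms, was lower by -0.89, and *nhr-76*, which acts in serotonin-driven fat loss, by -0.91 on the log2 scale. *nhr-2*, an early embryonic receptor, was higher by 0.86, with 15.6, 13.9 and 15.4 CPM in the deletion set's wild type against 8.68, 8.32 and 7.87 CPM in the other. *nhr-64* and *nhr-86* were higher by 0.47 and 0.38. Marker lists moved between the same wild types. All 8 moulting-larva genes were lower (summed range 107 to 145 CPM in the deletion set's wild type, against 372 to 454 CPM in the other), as were all 5 body muscle genes (2552 to 3371 CPM against 5309 to 6258 CPM) and all 5 genes of the larval and adult epidermis (567 to 802 CPM against 1736 to 1817 CPM). Of 6 embryonic genes, 5 were tested and all 5 were higher, with none of the listed genes at 0 in either group. Of 7 sperm genes, 6 were lower (221 to 305 CPM against 341 to 405 CPM). Of 5 intestinal genes, 3 were lower and 2 higher (2886 to 3339 CPM against 3026 to 3612 CPM), and of 6 yolk protein genes of the adult intestine 3 were lower (41149 to 45953 CPM against 47364 to 59048 CPM). Of 6 neuronal genes 1 was higher and 2 lower, and of 6 germline genes 2 were higher. The part of tissue and stage composition in the receptor levels was not tested.

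On chromosome V a smaller share of members than of all genes was lower. On chromosome V, 38 of 123 tested members (30.9%) were higher in the deletion set's wild type and 10 (8.13%) lower, whereas of all tested genes of V 30.3% were higher and 31.0% lower. On the other chromosomes together, 16 of 76 members were higher and 29 lower, with a median of -0.14, against 0.25 for the members on V. Over all tested genes of each of those chromosomes, from 14.7% (X) to 38.2% (III) were higher and from 29.8% (III) to 48.3% (X) lower. For all genes of V the median was -0.01. On X, where 48.3% of all genes were lower, 9 of 17 members were lower. These shares are descriptions of genes, which are not independent replicates.

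**Figure D5:**
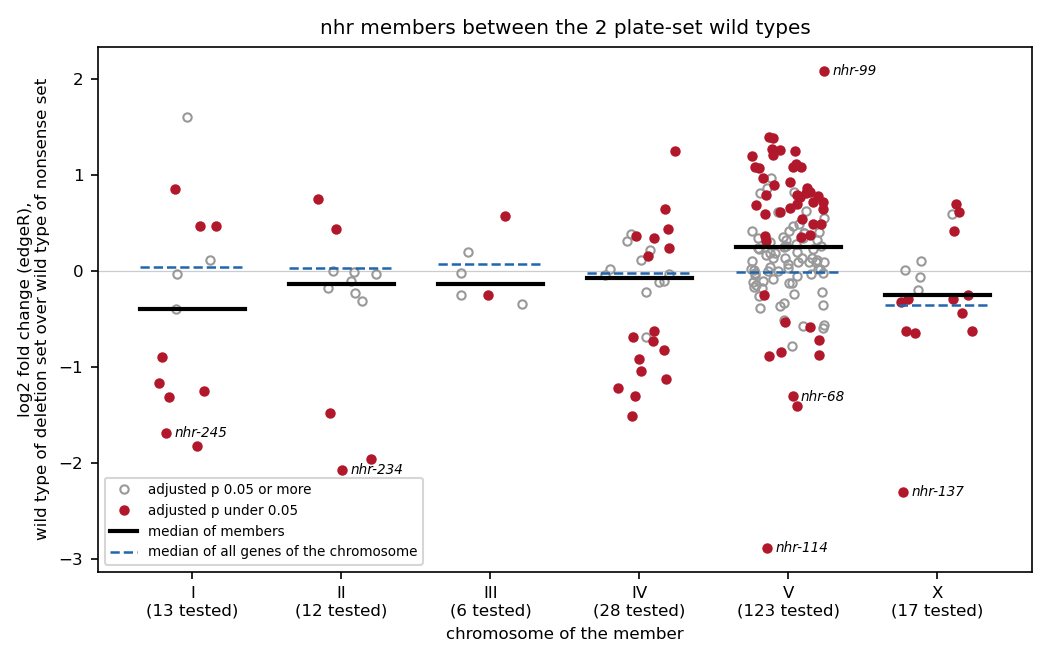
Log2 fold change (edgeR), wild type of the deletion set over that of the nonsense and revertant set, of the 199 tested members by chromosome; filled points pass an adjusted p of 0.05, black bars are member medians and dashed bars medians of all genes of the chromosome. Most filled points on V lie above 0, apart from *nhr-114* and 9 others.

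Some neighbouring members moved together. In the family, 139 members lie in 45 runs of adjacent protein-coding *nhr* genes, the longest with 9 members at V:3844429-3886204. That run was nearly silent, with a summed level of 1.29 TPM in the deletion set's wild type and 0.92 TPM in the other. In the run of 7 from *nhr-56* to *nhr-96* (V:2219004-2235180), 6 members were higher between the wild types and 0 lower, with a summed level of 23.7 TPM in the deletion set's wild type against 10.2 TPM in the other. Its members *nhr-18* and *nhr-103* were higher by 1.12 and 1.09 on the log2 scale. In the run of 6 that starts with *nhr-99* (V:474778-491432), 4 were higher and 0 lower. On chromosome II, the adjacent *nhr-234* and *nhr-235* (II:12636678-12642917) were lower by -2.07 and -1.96. On chromosome I, the adjacent *nhr-113* and *nhr-245* (I:11473218-11480071) were lower by -1.82 and -1.68. *nhr-234* had 0.270, 0.336 and 0.459 CPM in the deletion set's wild type against 1.72, 0.918 and 1.95 CPM in the other, so these low members rested on few reads. Of the 45 runs, 7 had at least 2 members called, and 5 of these moved in a single direction, 2 higher and 3 lower. Each of the 3 lower runs had only 2 called members. Runs of other neighbouring genes were not examined for comparison. Of 106 tested members in runs, 26 were higher and 12 lower, and of 93 tested single members 28 were higher and 27 lower. Over all genes tested, 31.0% were higher and 33.4% lower. Reads shared between near-identical neighbours could be split between them by the quantification, which would make neighbours depend on each other, and this was not tested.

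The other large differences were scattered. *nhr-137* (WBGene00003727, X:6661772-6669011) had 1.67, 2.32 and 1.54 CPM in the deletion set's wild type, against 10.2, 8.84 and 8.01 CPM in the other (log2 difference -2.30 ± 0.16, SE, adjusted *p* = 8.29e-08 by edgeR). *nhr-11*, *nhr-119* and *nhr-53* were lower by -1.51, -1.47 and -1.40, each without overlap. *nhr-97*, among the highest members, had 26.4, 24.996 and 30.6 CPM against 62.9, 61.2 and 66.8 CPM. Over all libraries of the sets, 23 members had all 6 libraries of the deletion set above all 9 of the nonsense and revertant set and 26 had all 6 below, against 22.6% and 25.1% of all genes. These are 11.6% and 13.1% of the 199 members.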

How the data were processed

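PolyA+ RNA of whole mixed-stage *C. elegans* was measured in 23 libraries. The authors trimmed reads with cutadapt and quantified transcripts with salmon. The deposited estimated counts are not normalized, and the deposited TPM values are scaled to transcript length and library total. Of 35749 transcripts, 31176 were matched to WBcel235 genes (Ensembl release 115) by identifier and 4485 by sequence name, and 88 were not matched. Among member transcripts, 438 matched by identifier and 57 by name. Estimated counts were summed per gene and rounded, and TPM summed. No sequences were used.

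Genes above 0.1 CPM in at least 3 libraries (2 in the older set) were scaled by TMM and tested with edgeR 4.0.16 in R 4.3.3 (quasi-likelihood), using the groups compared only. The *p*-values were adjusted over all tested genes by Benjamini-Hochberg, and members with an adjusted *p* under 0.05 were called changed. The authors' test, limma (3.58.1) with voom, and DESeq2 1.42.0 were alternatives, as were upper-quartile scaling, no filter, filterByExpr, lengthScaledTPM counts, a replicate block, all samples in a joint fit, each replicate left out and a log2 difference of at least 1. CPM shown were scaled over the plate libraries together and over the older libraries separately. The tests were checked on simulated counts, and no replicate pair agreed within sampling noise.

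Members named are, per comparison, up to 10 called members with the largest change and no overlap, members with counterparts outside nematodes or known roles, and the 10 with the highest wild-type TPM. The others named, with their neighbours on the chromosome, were chosen after their values were seen. Members and gene lists were chosen with earlier results of these data known. Replicates are numbered in the labels, the plate cultures being biological triplicates, and *p*-values measure the spread between these libraries only.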

Additional observations from a re-analysis of the deposited data

Results flagged for a closer look

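The effect of *jam113* on *fat-5*, a desaturase gene activated by NHR-49, differed from that of *jam80* by 1.53 on the log2 scale in the interaction test (adjusted *p* = 0.0136 by edgeR), with 14.8, 12.5 and 9.44 CPM in *sid-1(jam113[deletion])* against 4.67, 3.30 and 4.45 CPM in its wild type, and with 29.9, 20.7 and 23.9 CPM in *sid-1(jam80[nonsense])* against 24.9, 26.5 and 22.8 CPM in its wild type. The *fat-5* call was lost without *sid-1(jam80[nonsense])* replicate 3 and without replicate 1 or 2 of its wild type (adjusted *p* from 0.0552 to 0.0635 by edgeR), and it held in the other 17 of 20 alternatives. Whether *nhr-6* responds differently to *qt9* and *jam80* was not tested. It had a log2 ratio of mean CPM of -0.86 in *sid-1(qt9[nonsense])* over its wild type, both libraries being below the wild-type mean, and of 0.08 in *sid-1(jam80[nonsense])* over its own, all 3 libraries being above that mean.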

How the results depend on the processing

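Of the 93 members called between the plate wild types, 67 passed in each of the 14 alternative fits and none changed sign, while 31 also had a log2 difference of at least 1. The count was 76 to 93 with a replicate left out. For *jam113* over wild type the count of 0 became 5 with DESeq2 and ranged from 0 to 20 with a replicate left out, and for the interaction it became 5 with DESeq2, 2 with no filter and 1 with all samples in a joint fit, ranging from 0 to 22. At a log2 difference of at least 1, counts were 0 for *jam86* over wild type (1 to 5 with a replicate left out), for *jam86* over *jam80* (0 to 3) and for *qt9* over wild type (0 to 10), and the last was also 0 with lengthScaledTPM counts. For *tm2700* over the rescued strain the count of 1 became 0 with limma and voom, DESeq2, upper-quartile scaling, lengthScaledTPM counts, the replicate block and all samples in a joint fit, and 2 with no filter (0 to 8 with a replicate left out). It was 1 with DESeq2 for the rescued strain over wild type (2 to 4 with a replicate left out). With a replicate left out it ranged from 0 to 2 for *tm2700* over wild type and was 0 in every fit for *jam80* over wild type. The coregulator gene *din-1* changed sign between the plate wild types with lengthScaledTPM counts (0.57, against -0.42). With the replicate number as a block, 92 members passed between the wild types and 3 for *jam86* over wild type. Same-numbered libraries did not all deviate together (for *jam113*, correlations of 0.321, 0.113 and -0.074), so the numbers were not taken to pair libraries. The causes were not tested. Where no share of all genes is printed for a fit, here or above, its count of members was not set against all genes. Where a group of 2 lost a library, the lone one was assumed to vary like the other group. In the older set, 2 libraries a group limit what could be detected.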
